A study of Mus musculus with 6 samples.

Results

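The genes of fatty acid uptake and oxidation were followed in mouse tibialis anterior muscle that carried one of a pair of Lrpprc plasmids. They are 33 genes of 41709 in the table, chosen by gene symbol for their place in the pathway: fatty acid uptake, activation and carnitine transfer, beta-oxidation, and the factors that control it. All 33 were found in the table, and all 33 had a mean of at least 1 TPM over the libraries and were tested. RNA was taken from whole tibialis anterior muscles of male C57BL/6J mice. The 3 LrpprcWT muscles had been electroporated with a plasmid for Flag-tagged wild-type mouse Lrpprc under a CMV promoter. The 3 LrpprcP27A muscles had received the same plasmid with a proline that can be dihydroxylated replaced by alanine. Both groups thus carried an Lrpprc plasmid, and the comparison is between the variants. No muscle without a plasmid was analysed here, so how far either raised Lrpprc cannot be read from these libraries. Each mouse gave a contralateral pair of muscles, the number of the library is taken here as the mouse, and the age of the sequenced mice is not given in the sources used here. Electroporation reaches part of the fibres of a muscle, while the RNA came from the whole tissue.

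Muscle takes up fatty acids from the blood, where lipoprotein lipase frees them from triglycerides, and binds them in the cytosol. Long chains are joined to coenzyme A, handed to carnitine to cross the inner mitochondrial membrane, and then shortened in repeated rounds of dehydrogenation, hydration, dehydrogenation and thiolysis. Malonyl-CoA, made at the outer membrane by the acetyl-CoA carboxylase Acacb, blocks the entry step, and PPAR nuclear receptors, which bind DNA together with an RXR partner, drive transcription of most genes of the pathway. Lrpprc itself binds mitochondrial mRNAs and also acts as a coactivator with PGC-1alpha, a partner of the PPARs.

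Values are TPM, a measure of how much of a library's RNA a gene makes up after correction for length, so levels of different genes can be compared but a gene also moves when others take more or less of the total. Genes of the mitochondrial genome took 36.0% to 45.2% of the TPM in LrpprcWT and 44.2% to 46.1% in LrpprcP27A, and the 18S rRNA entry Rn18s-rs5 took 0.887% to 1.76% and 3.70% to 4.44%. The median log2 fold change of all 11611 tested genes was -0.32 on the deposited scale, and 88.0% of them were below 0. Median-of-ratios scaling, which sets the typical gene level between libraries, moved that median to -0.0047. Changes of the pathway genes are therefore given on both scales or relative to the median gene. Lrpprc mRNA, plasmid and endogenous copies together, stood at 35.1, 37.0 and 75.2 TPM in LrpprcWT replicates 1, 2 and 3 and at 26.9, 29.7 and 26.0 TPM in LrpprcP27A. It was lower in all 3 pairs and the groups did not overlap, with a log2 fold change of -0.72 ± 0.26 (limma adjusted p = 0.0652, and 0.0024 with the replicate number as a block). On the median-of-ratios scale the difference was -0.36 (adjusted p = 0.331, and 0.245 with the block). The variant and the amount of Lrpprc mRNA cannot be told apart in this comparison. By qRT-PCR, the authors found similar Lrpprc mRNA with both plasmids in young mice and no significant difference in old mice. Whether the sequenced muscles were among those measured is not stated. Fast-fibre and general muscle genes summed to 141431 to 158472 TPM in LrpprcWT and 132714 to 151031 TPM in LrpprcP27A, so the defining genes of the labelled muscle were present. At an adjusted p under 0.05 in limma, 1 of these 10 genes was lower (Mylpf, -0.59) and 1 higher (Actn3, 0.42). Over all tested genes the shares were 23.3% and 1.34%. With median-of-ratios scaling Mylpf stood at -0.21 and Actn3 at 0.80, and Actn3 alone passed (adjusted p = 0.0499). Myh4 stood at 0.36 and passed with the block (adjusted p = 0.0203), and at 0.74 after that scaling. Macrophage markers (225.8 to 418.1 against 76.4 to 141.7 TPM), fibroblast markers (763.1 to 1240.5 against 189.1 to 429.8 TPM) and markers of slow and oxidative fibres (378.7 to 584.1 against 134.6 to 249.6 TPM) were lower in every LrpprcP27A library than in any LrpprcWT library. Most of that last sum was Myh2 in every library, with means of 317.4 TPM in LrpprcWT and 147.4 TPM in LrpprcP27A.

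Acacb and Rxra were the pathway genes that rose with LrpprcP27A, by 0.43 ± 0.10 (SE) and 0.34 ± 0.10 on the log2 scale, and Ucp2 and Hadh fell by 0.96 ± 0.25 and 0.38 ± 0.11. Relative to the median of all genes these changes were 0.75, 0.66, -0.64 and -0.06, so that Hadh stood where the typical gene stood. At an adjusted p under 0.05 in limma, 2 of the 33 genes were called lower (6.06%), where 23.3% of all tested genes were called lower. Likewise 2 of 33 were called higher (6.06%), where 1.34% of all tested genes were. The median log2 fold change of the 33 genes was -0.13, above the -0.32 of all genes, and 29 of the 33 were above that median. The number above the median of all genes was 19 of 33 without LrpprcWT replicate 1 and 17 of 33 without the filter on low genes. As members were chosen with results of these data known, that position is a description and has no test.

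Calls of the pathway genes moved with scaling and with pairing. With the replicate number as a block, 6 of 33 were lower (Fabp3, Acads, Hadha, Hadh, Acaa2 and Ucp2) and 2 higher, where 48.4% and 2.69% of all genes were called. With median-of-ratios scaling, limma called 0 lower, although 1 gene was lower at an unadjusted p under 0.05, a threshold at which all genes were not counted. The same scaling gave 3 higher (Crat, Acacb and Rxra), where 6.03% and 5.25% of all genes were called lower and higher. With both the block and that scaling, 1 was lower (Ucp2) and 10 were higher (Acsl1, Cpt1b, Crat, Acadm, Hadhb, Eci1, Acot13, Acacb, Mlycd and Rxra), where 15.8% and 13.4% of all genes were called. Acacb and Rxra were called higher in each of these 4 fits, and Ucp2 was called lower in 3 of them. The groups did not overlap for 8 genes that were lower (Slc22a5, Acads, Echs1, Hadh, Acaa2, Etfa, Etfb and Ucp2) and for 2 that were higher (Acacb and Rxra), where 47.6% and 3.51% of all genes did so. For each of these 10 an exact two-sided permutation test gave p = 0.1, the smallest that 3 against 3 libraries allow.

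**Figure D1:**
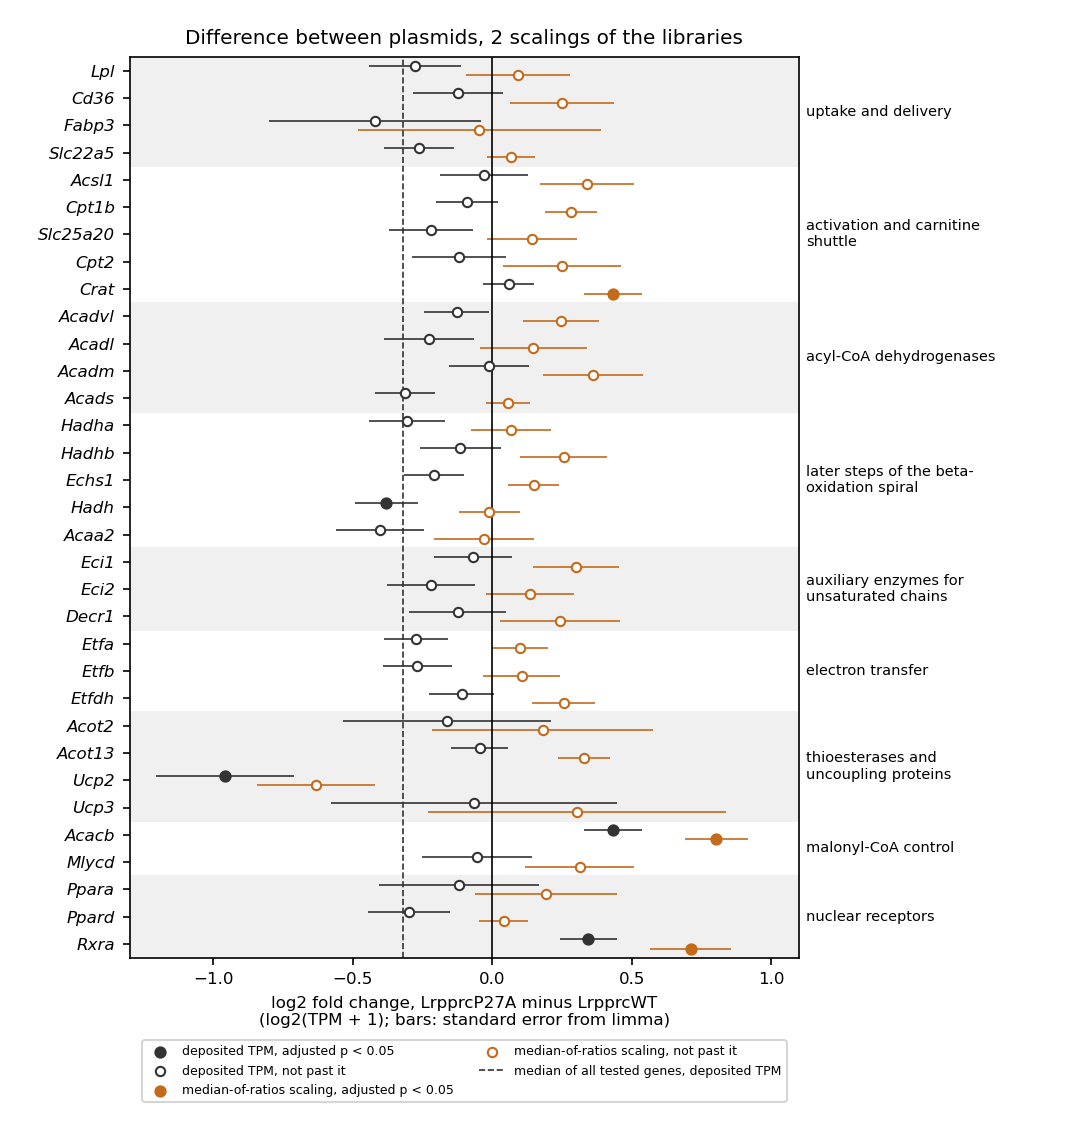
Log2 fold change (LrpprcP27A minus LrpprcWT, horizontal axis) of the 33 genes, grouped by role, on the deposited TPM scale and with median-of-ratios scaling of the libraries; bars are the standard error from limma, filled points have an adjusted p under 0.05, and the dashed line is the median of all tested genes on the deposited scale. Acacb and Rxra lie to the right of 0 on both scales and Ucp2 to the left on both, while 26 genes lie below 0 on the deposited scale and above it after scaling.

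Uptake and delivery held the most abundant gene of the pathway, Fabp3, which passed the threshold in the paired fit on the deposited scale alone. Fabp3, the cytosolic fatty acid-binding protein of heart and oxidative muscle, stood at 674.9, 1216.1 and 1557.5 TPM in LrpprcWT replicates 1, 2 and 3, and at 464.4, 942.3 and 1215.8 TPM in LrpprcP27A. It was lower with LrpprcP27A in all 3 pairs, while the groups overlapped because the mice differed by more than the plasmids. Its means were 1149.5 ± 445.0 and 874.2 ± 380.3 TPM (SD, n = 3 each), and the log2 fold change was -0.42 ± 0.38 (limma adjusted p = 0.379 unpaired and 0.0066 with the replicate block). With median-of-ratios scaling the difference was -0.05 and was not called with the block either (adjusted p = 0.740). Markers of slow and oxidative fibres, in which Fabp3 is abundant, were lower as well: 6 of 8 were called lower, and their sum ranged from 378.7 to 584.1 TPM in LrpprcWT and from 134.6 to 249.6 TPM in LrpprcP27A. Most of that sum was Myh2, while Myh7 was 14.9 TPM in LrpprcWT replicate 1 and 0.177 to 0.823 TPM in the other libraries. With median-of-ratios scaling 4 of the 8 were still called lower and their median was -1.06, against the -0.05 of Fabp3. Among the LrpprcWT libraries, replicate 1 had the lowest Fabp3 and the highest marker sum. In bulk muscle, fewer cells of a type and less RNA per cell cannot be told apart, and the part of fibre makeup in these values was not tested.

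Lpl, the lipase that frees fatty acids at the vessel wall, was 63.4, 70.9 and 69.4 TPM in LrpprcWT and 49.7, 47.7 and 73.1 TPM in LrpprcP27A (-0.28 ± 0.16, adjusted p = 0.200). Replicate 3 went against the other pairs. Cd36, the fatty acid translocase of the plasma membrane, was 110.3, 126.2 and 135.2 TPM against 92.5, 110.8 and 142.2 TPM, with a log2 fold change of -0.12 (adjusted p = 0.546). Slc22a5, the carnitine transporter, was low but even, with 8.64, 7.44 and 8.17 TPM in LrpprcWT and 6.80, 6.19 and 6.72 TPM in LrpprcP27A (-0.26, adjusted p = 0.130). With median-of-ratios scaling Lpl, Cd36 and Slc22a5 stood at 0.09, 0.25 and 0.07. Endothelial markers summed to 191.8 to 341.1 TPM in LrpprcWT and 142.5 to 197.4 TPM in LrpprcP27A, with none at 0. Of these 7 markers 2 were called lower, where 23.3% of all tested genes were. With median-of-ratios scaling 0 were, where 6.03% of all were, and with the block on that scale 3, where 15.8% of all were. Adipocyte markers summed to 99.5 to 125.4 TPM in LrpprcWT and 70.2 to 97.6 TPM in LrpprcP27A, with Lep at 0 in 1 library. Most of the adipocyte sum was Fabp4, with means of 89.1 and 56.8 TPM, and it was the 1 of 5 tested adipocyte markers called lower. The median of the 5 was 0.06, 3 of them were above 0, and Cfd, at 0.66, was called higher with the block (adjusted p = 0.0233). With median-of-ratios scaling Fabp4 stood at -0.26 and Cfd at 0.999, and neither was called with or without the block. Both cell types express Lpl and Cd36, and their part in these values was not tested.

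**Figure D2:**
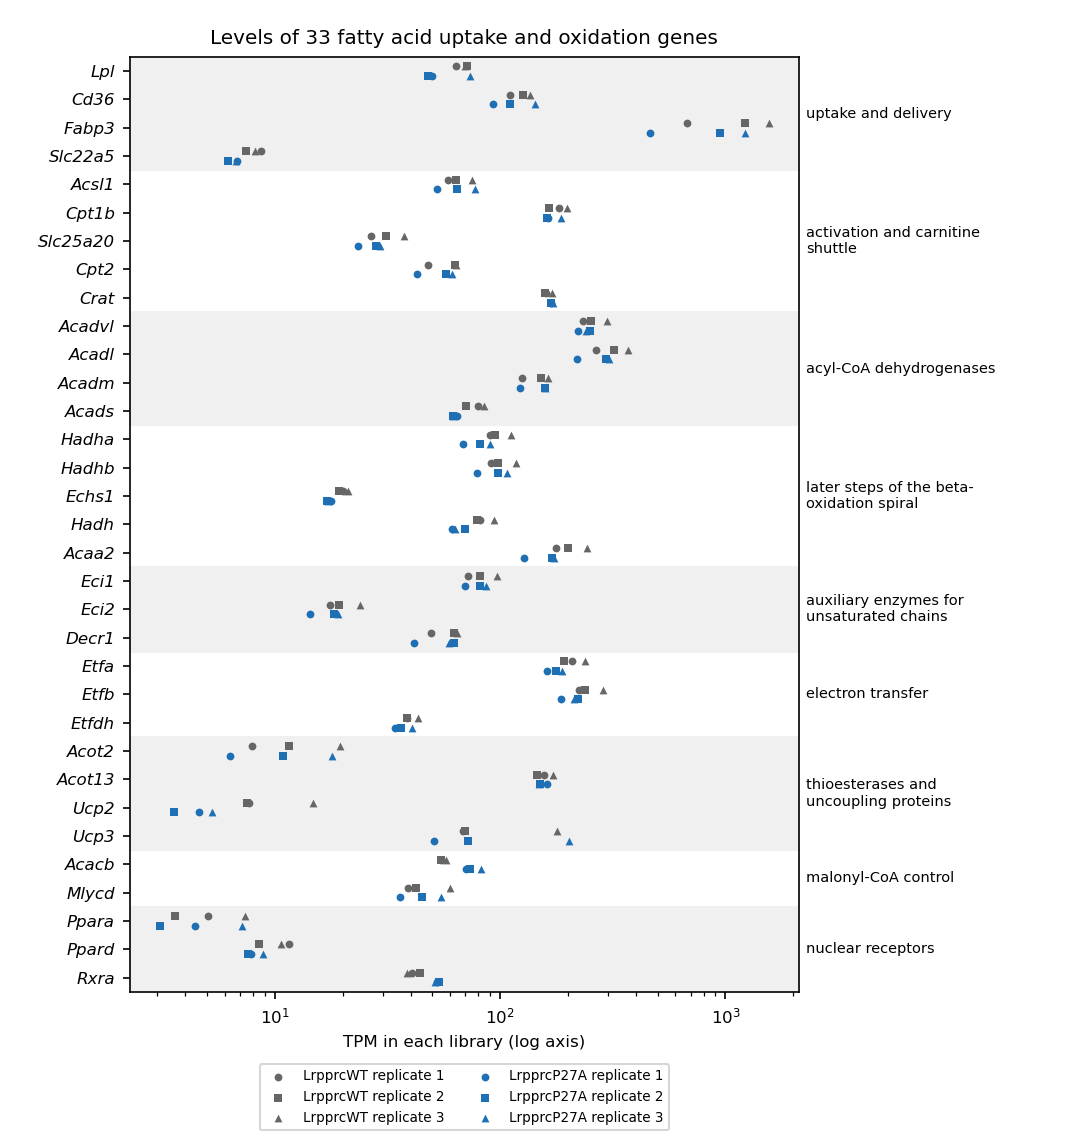
TPM of the 33 genes in each of the 6 libraries on a log axis, with LrpprcWT in grey and LrpprcP27A in blue and the marker shape giving the replicate number. Levels ran from a mean of 5.11 TPM for Ppara to 1012 TPM for Fabp3, and in Acot2 and Ppara the same-numbered libraries of both plasmids lie closer to each other than to other mice.

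The 5 genes of activation and the carnitine shuttle had small differences on the deposited scale, and all 5 lay above the median gene. Cpt1b, the muscle form of the outer-membrane carnitine palmitoyltransferase that sets the rate of entry, was 181.9, 165.2 and 197.1 TPM in LrpprcWT and 163.3, 161.0 and 186.4 TPM in LrpprcP27A. The groups overlapped, with a log2 fold change of -0.09 ± 0.11 (adjusted p = 0.513). Crat, which moves acetyl groups between coenzyme A and carnitine, was 159.2, 158.0 and 169.4 TPM in LrpprcWT and 167.7, 167.2 and 172.1 TPM in LrpprcP27A. It was higher in all 3 pairs, although the groups overlapped. Its log2 fold change was 0.06 ± 0.09 on the deposited scale (adjusted p = 0.602) and 0.43 ± 0.10 with median-of-ratios scaling (adjusted p = 0.0436, and 0.0173 with the block). Acsl1, the acyl-CoA synthetase of the outer membrane, Slc25a20, the carnitine-acylcarnitine translocase, and Cpt2, which returns the chain to coenzyme A, had log2 fold changes of -0.03, -0.22 and -0.12. With median-of-ratios scaling the same 3 genes stood at 0.34, 0.14 and 0.25, and with the block Acsl1 was called higher on that scale (adjusted p = 0.0336), as was Cpt1b at 0.28 (adjusted p = 0.0463).

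The control of malonyl-CoA held the clearest rise. Acacb, the acetyl-CoA carboxylase that makes malonyl-CoA next to Cpt1b, was 54.3, 54.6 and 57.2 TPM in LrpprcWT and 70.8, 73.2 and 81.8 TPM in LrpprcP27A. The LrpprcWT values were nearly level, and the lowest LrpprcP27A value was above the highest of them. The means were 55.3 ± 1.60 and 75.2 ± 5.82 TPM (SD, n = 3 each), a ratio of 1.36. The log2 fold change of 0.43 ± 0.10 had a limma adjusted p of 0.0265, and of 0.0059 with the block, and stood at the 98.2 percentile of all tested genes. On the median-of-ratios scale the change was 0.80 ± 0.11 (adjusted p = 0.0226). Without LrpprcWT replicate 1, LrpprcWT replicate 3, LrpprcP27A replicate 2 or LrpprcP27A replicate 3 the change stayed between 0.37 and 0.46 but the adjusted p was 0.0895, 0.0931, 0.0957 and 0.106. Mlycd, which breaks malonyl-CoA down again, was 38.9, 42.2 and 59.6 TPM in LrpprcWT and 35.7, 44.7 and 54.7 TPM in LrpprcP27A, with a log2 fold change of -0.05 (adjusted p = 0.828). It was 0.31 with median-of-ratios scaling and was called higher there with the block (adjusted p = 0.0220). Within a library, where scaling does not enter, the ratio of Acacb to Cpt1b was 0.298, 0.330 and 0.290 in LrpprcWT and 0.433, 0.454 and 0.439 in LrpprcP27A. The ratio of Acacb to Mlycd was 1.39, 1.29 and 0.960 against 1.98, 1.64 and 1.49. Both ratios were higher in every LrpprcP27A library, and they were chosen after the values were seen and have no test.

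Acacb lies on chromosome 5 (GRCm39 chr5:114284307-114388822, plus strand, 53 exons in the canonical transcript), and Rxra on chromosome 2 (chr2:27566452-27653330, plus strand, 10 exons). Their start regions are printed because both genes rose. Each runs from 250 bases before to 50 bases from the start site of the canonical transcript on, which for Rxra lies inside the span above. They are given in GRCm39 and 5′ to 3′ on the plus strand (chr5:114284057-114284356 and chr2:27566756-27567055). Capitals mark matches on either strand to AGGTCA, the half-site that nuclear receptors of the RXR family bind.
Acacb: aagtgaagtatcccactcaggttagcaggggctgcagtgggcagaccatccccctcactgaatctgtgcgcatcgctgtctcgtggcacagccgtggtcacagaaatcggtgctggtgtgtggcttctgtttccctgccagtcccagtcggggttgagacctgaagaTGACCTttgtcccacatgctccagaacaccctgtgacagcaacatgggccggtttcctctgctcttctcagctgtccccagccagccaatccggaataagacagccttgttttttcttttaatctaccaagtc
Rxra: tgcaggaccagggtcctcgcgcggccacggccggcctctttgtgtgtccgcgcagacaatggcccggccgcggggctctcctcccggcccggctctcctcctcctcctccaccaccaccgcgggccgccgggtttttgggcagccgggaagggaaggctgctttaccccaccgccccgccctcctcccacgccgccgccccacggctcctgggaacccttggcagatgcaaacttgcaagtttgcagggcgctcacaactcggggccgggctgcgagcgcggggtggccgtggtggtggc
The Acacb window held 1 half-site and 54.7% G and C with 8 CpG, and that of Rxra held none, with 72.7% G and C and 30 CpG, where the median over 21770 promoters of protein-coding genes was 54.3% and 11 CpG. Over the pathway, 7 of 33 promoters (21.2%) held AGGTCA on either strand, against 15.1% of all promoters of this length. They belong to Cpt1b, Acadvl, Hadha, Echs1, Ucp3, Acacb and Mlycd. The paired form AGGTCANAGGTCA was in 0 of 33 and in 10 of all promoters (0.0459%).

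The acyl-CoA dehydrogenases, which begin each round and differ in the chain length they take, had log2 fold changes of -0.13 for Acadvl, -0.23 for Acadl, -0.01 for Acadm and -0.31 for Acads. Acadl, the most abundant of them, was 265.9, 320.3 and 368.2 TPM in LrpprcWT and 220.1, 293.3 and 302.5 TPM in LrpprcP27A (adjusted p = 0.270). It was lower in all 3 pairs, with groups that overlapped. Acads, the short-chain enzyme, was 79.5, 70.5 and 84.7 TPM against 64.2, 61.9 and 61.9 TPM, and the groups did not overlap (adjusted p = 0.0593, and 0.0369 with the block). On the median-of-ratios scale the 4 genes stood at 0.25, 0.15, 0.36 and 0.06 in the same order, and Acadm was called higher with the block (adjusted p = 0.0207).

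The later steps of the spiral were the group nearest to the median gene, with a median of -0.31 on the deposited scale and 0.07 with median-of-ratios scaling. Hadh, the short-chain 3-hydroxyacyl-CoA dehydrogenase of the matrix (chr3:131027068-131065750, minus strand), was 81.4, 78.6 and 93.9 TPM in LrpprcWT and 61.3, 70.0 and 62.8 TPM in LrpprcP27A. Every LrpprcP27A library was below every LrpprcWT library, with means of 84.6 ± 8.16 and 64.7 ± 4.63 TPM (SD, n = 3 each). The log2 fold change of -0.38 ± 0.11 was past the threshold (limma adjusted p = 0.0426, and 0.0164 with the block), and the same difference on the median-of-ratios scale was -0.01 ± 0.11 (adjusted p = 0.960). Leaving out any library other than LrpprcWT replicate 2 ended the call, while the log2 fold change stayed between -0.44 and -0.30 whichever library was left out. Without LrpprcWT replicate 1 or 3 the adjusted p was 0.107 and 0.128, and without LrpprcP27A replicate 1, 2 or 3 it was 0.116, 0.104 and 0.132. Acaa2, the thiolase, was 177.2, 200.9 and 242.8 TPM in LrpprcWT and 127.0, 169.7 and 172.5 TPM in LrpprcP27A. Its groups did not overlap, and the log2 fold change of -0.40 was called with the block (adjusted p = 0.0817 unpaired and 0.0094 with the block) but was -0.03 with median-of-ratios scaling. Echs1, the short-chain hydratase, was 20.1, 19.2 and 21.0 TPM against 17.7, 16.99 and 17.1 TPM (-0.21, adjusted p = 0.153).

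Hadha and Hadhb, the subunits of the trifunctional protein of the inner membrane, are read in opposite directions from neighbouring start sites. Hadha (chr5:30323302-30360187) lies on the minus strand and Hadhb (chr5:30359204-30389997) on the plus strand, with 64 bases between the starts of their canonical transcripts and 984 bases of annotated overlap. The stretch between them is shown along the plus strand (GRCm39 chr5:30360181-30360246), with the first base of each transcript in capitals, Hadha on the left.
Hadha-Hadhb: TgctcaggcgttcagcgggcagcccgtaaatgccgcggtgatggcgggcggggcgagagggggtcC
Hadha was 89.7, 94.5 and 112.2 TPM in LrpprcWT and 68.5, 81.3 and 89.9 TPM in LrpprcP27A, with a log2 fold change of -0.31 (adjusted p = 0.109, and 0.0377 with the block). Hadhb was 91.3, 97.6 and 117.2 TPM against 78.8, 97.4 and 106.9 TPM, with -0.12 (adjusted p = 0.526). With median-of-ratios scaling they stood at 0.07 and 0.26, and Hadhb was called higher with the block (adjusted p = 0.0446). The genes thus followed the mice together but the plasmids unequally. The ratio of Hadha to Hadhb was 0.982, 0.969 and 0.957 in LrpprcWT and 0.869, 0.834 and 0.841 in LrpprcP27A, lower in every LrpprcP27A library (0.969 ± 0.0126 and 0.848 ± 0.0187, SD, n = 3 each, without a test since the ratio was chosen after the values were seen). Of the 100-base windows of Hadhb, 53.2% also occur in its annotated pseudogene, whose level was not analysed here, so its reads may have been divided. The library kit does not mark strand, so reads from the overlap of both genes cannot be assigned by strand.

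The auxiliary enzymes, which bring unsaturated chains into the spiral, and the electron-transfer proteins, which pass electrons from the dehydrogenases to the respiratory chain, had medians of -0.12 and -0.27 on the deposited scale and of 0.24 and 0.11 with median-of-ratios scaling. Eci1, an enoyl-CoA isomerase and the most abundant auxiliary enzyme, was 71.6, 81.5 and 97.0 TPM in LrpprcWT and 69.4, 81.0 and 86.9 TPM in LrpprcP27A (-0.07, adjusted p = 0.693). The isomerase Eci2 and the dienoyl-CoA reductase Decr1 had log2 fold changes of -0.22 and -0.12. With median-of-ratios scaling the 3 genes stood at 0.30, 0.14 and 0.24, and Eci1 was called higher with the block (adjusted p = 0.0341). Etfb was 223.9, 238.7 and 284.8 TPM in LrpprcWT and 185.5, 221.0 and 211.9 TPM in LrpprcP27A, and its partner subunit Etfa was 208.5, 192.8 and 238.3 TPM against 161.9, 177.7 and 187.7 TPM. Neither overlapped between groups, both had a log2 fold change of -0.27 (adjusted p = 0.118 and 0.0944), and both were above 0 with median-of-ratios scaling, at 0.11 and 0.10. The dehydrogenase that takes their electrons, Etfdh, had -0.11 on the deposited scale and 0.26 with median-of-ratios scaling. The ratio of Etfa to Etfb was 0.859 ± 0.0648 in LrpprcWT and 0.854 ± 0.0441 in LrpprcP27A (SD, n = 3 each), and the groups overlapped.

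Among the thioesterases and uncoupling proteins, Ucp2 carried the largest difference of the pathway on the deposited scale. Relative to the median of all genes its -0.64 was smaller in size than the 0.75 of Acacb and the 0.66 of Rxra. Ucp2, a carrier of the inner mitochondrial membrane that is also abundant in immune cells, was 7.68, 7.49 and 14.7 TPM in LrpprcWT and 4.59, 3.55 and 5.24 TPM in LrpprcP27A. All LrpprcP27A libraries were below all LrpprcWT libraries, and LrpprcWT replicate 3 stood apart on the high side. The means were 9.97 ± 4.13 and 4.46 ± 0.855 TPM (SD, n = 3 each), a ratio of 0.447. The log2 fold change was -0.96 ± 0.25 (limma adjusted p = 0.0308, and 4.05e-05 with the block), and -0.63 ± 0.21 with median-of-ratios scaling (adjusted p = 0.0882, and 0.0238 with the block). Without LrpprcWT replicate 1, LrpprcWT replicate 3, LrpprcP27A replicate 2 or LrpprcP27A replicate 3 the adjusted p was 0.0608, 0.106, 0.0938 and 0.0641, and the log2 fold change without LrpprcWT replicate 3 was -0.67. Macrophage markers moved with Ucp2: 7 of 7 were called lower on the deposited scale and 3 of 7 with median-of-ratios scaling, their sum was 225.8 to 418.1 TPM in LrpprcWT and 76.4 to 141.7 TPM in LrpprcP27A, and none was at 0. Their part in the Ucp2 value was not tested.

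Ucp3, the form of skeletal muscle, lies beside Ucp2 on chromosome 7, with 6078 bases between the end of Ucp3 (chr7:100122136-100135976) and the start of Ucp2 (chr7:100142055-100151227), both on the plus strand. Its values followed the mice and not the plasmids. It was 68.5, 69.8 and 178.6 TPM in LrpprcWT and 50.7, 72.0 and 202.5 TPM in LrpprcP27A, with replicate 3 far above the others in both groups. The log2 fold change was -0.07 ± 0.51 on the deposited scale and 0.30 with median-of-ratios scaling (adjusted p = 0.918 and 0.720). The windows around the start sites of their canonical transcripts are printed to compare these neighbours (GRCm39, plus strand, chr7:100121886-100122185 for Ucp3 and chr7:100142277-100142576 for Ucp2), with AGGTCA on either strand in capitals. For Ucp2 that start site lies inside the span above.
Ucp3: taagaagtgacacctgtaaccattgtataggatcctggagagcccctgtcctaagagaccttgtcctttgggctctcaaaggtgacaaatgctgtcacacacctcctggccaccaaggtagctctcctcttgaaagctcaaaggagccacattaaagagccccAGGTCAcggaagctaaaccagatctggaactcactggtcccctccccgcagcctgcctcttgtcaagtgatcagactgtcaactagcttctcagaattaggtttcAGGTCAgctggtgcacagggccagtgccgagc
Ucp2: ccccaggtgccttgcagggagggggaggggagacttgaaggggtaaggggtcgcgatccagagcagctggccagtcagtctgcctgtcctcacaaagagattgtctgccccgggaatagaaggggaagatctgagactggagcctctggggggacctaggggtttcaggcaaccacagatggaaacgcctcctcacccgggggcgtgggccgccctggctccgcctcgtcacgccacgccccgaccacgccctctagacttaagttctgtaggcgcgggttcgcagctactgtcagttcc
The Ucp3 window held 2 half-sites and 3 CpG and that of Ucp2 held 0 half-sites and 16 CpG, with 52.7% and 63.7% G and C. Acot2, a thioesterase that frees long chains from coenzyme A in the matrix, had the same dependence on the mouse as Ucp3, with 7.86, 11.6 and 19.5 TPM in LrpprcWT and 6.33, 10.8 and 17.8 TPM in LrpprcP27A. Its log2 fold change was -0.16 on the deposited scale and 0.18 with median-of-ratios scaling. Of its 100-base windows 15.6% are shared with its neighbour Acot1, which stood at 0.0384 to 0.445 TPM. Acot13, another thioesterase, was the most abundant of the group after correction for length, at 156.3, 146.2 and 170.6 TPM against 160.6, 149.6 and 147.8 TPM (-0.04, and 0.33 with median-of-ratios scaling, where it was called higher with the block, adjusted p = 0.0344).

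**Figure D3:**
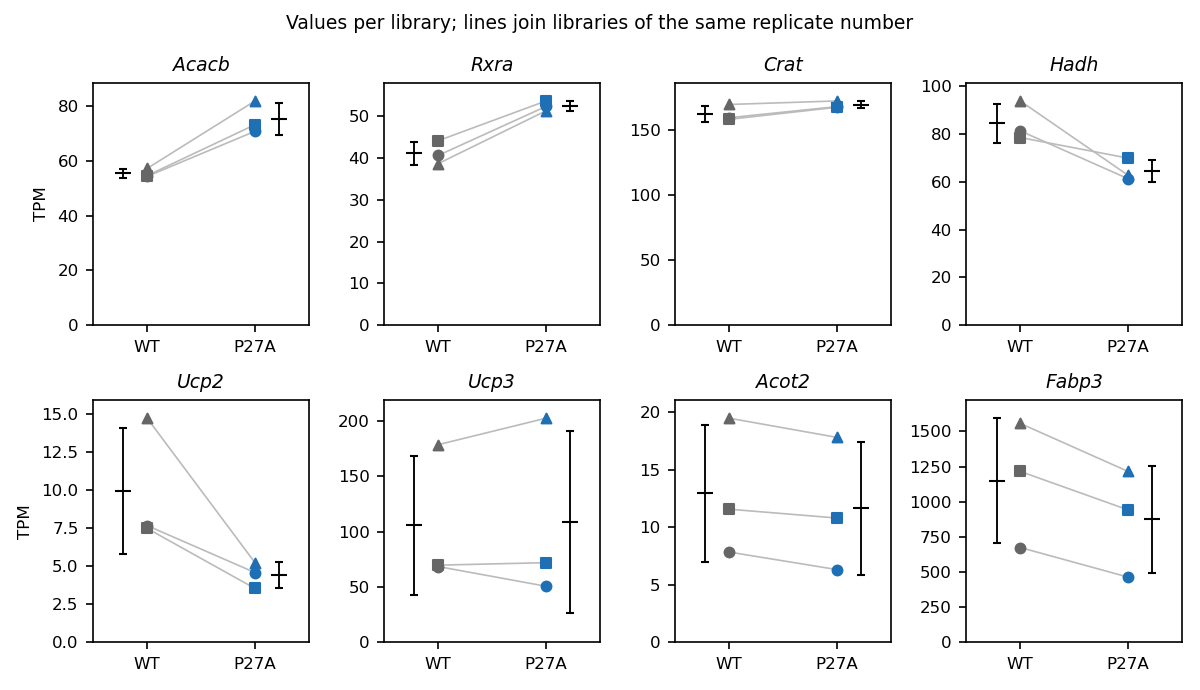
TPM (vertical axis, from 0) of 8 genes in each library, with lines joining libraries of the same replicate number and bars giving the mean ± SD of each group (n = 3). Acacb, Rxra and Crat are higher with LrpprcP27A in all 3 pairs and Hadh, Ucp2, Acot2 and Fabp3 lower in all 3 on the deposited scale, where Acot2 turned to 0.18 with median-of-ratios scaling; Ucp3 separates replicate 3 from the other mice.

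Of the nuclear receptors, Rxra, an RXR partner of the PPARs, rose. It was 40.6, 44.2 and 38.7 TPM in LrpprcWT and 52.4, 53.7 and 51.3 TPM in LrpprcP27A. The groups did not overlap and the spread within each was small, with means of 41.2 ± 2.78 and 52.5 ± 1.18 TPM (SD, n = 3 each) and a ratio of 1.27. The log2 fold change was 0.34 ± 0.10 (limma adjusted p = 0.0434, and 0.0227 with the block) and 0.71 ± 0.15 with median-of-ratios scaling (adjusted p = 0.0336). It was at the 97.5 percentile of all tested genes. The call was lost without any library other than LrpprcWT replicate 2, with an adjusted p of 0.130 and 0.122 without LrpprcWT replicates 1 and 3, and of 0.107, 0.175 and 0.124 without LrpprcP27A replicates 1, 2 and 3. The log2 fold change stayed between 0.30 and 0.40 whichever library was left out. Rxrg and Rxrb, the other RXR genes, are on the wider lipid list and were named after their values were seen. Rxrg had a log2 fold change of 0.34 (limma adjusted p = 0.0970, and 0.0281 with the block). With median-of-ratios scaling Rxrg stood at 0.70 (adjusted p = 0.0603, and 0.0106 with the block). Rxrb had -0.16 as deposited and 0.20 with median-of-ratios scaling (adjusted p = 0.295 and 0.181). Ppara, the PPAR that drives fat oxidation on fasting, was 5.05, 3.58 and 7.35 TPM in LrpprcWT and 4.41, 3.08 and 7.16 TPM in LrpprcP27A. It differed by mouse, with a log2 fold change of -0.12 on the deposited scale and 0.19 with median-of-ratios scaling (adjusted p = 0.740 and 0.623). Ppard, the main PPAR of muscle, was 11.6, 8.45 and 10.6 TPM against 7.82, 7.54 and 8.86 TPM, with -0.30 and 0.04 on those scales (adjusted p = 0.139 and 0.771). The ratio of Rxra to Ppard was 3.51, 5.23 and 3.65 in LrpprcWT and 6.70, 7.12 and 5.79 in LrpprcP27A, higher in every LrpprcP27A library, and that of Rxra to Ppara overlapped. These ratios, too, were chosen after the values were seen and have no test.

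On the deposited scale, most of the pathway varied more between mice than between plasmids. The sum of squares of log2(TPM + 1) over the 6 libraries was divided into a part between replicate numbers, a part between plasmids and a remainder. The part between plasmids includes the shift of all genes on that scale, and the division was not made with median-of-ratios scaling. For the 33 genes the median parts were 64.8%, 26.97% and 4.82%, and for all tested genes 25.7%, 56.7% and 11.3%. The part between replicate numbers was the larger for 21 of 33 pathway genes (63.6%) and for 29.1% of all tested genes. A wider list of 78 other tested lipid genes lay between these, with a median of 42.2% between replicate numbers, which was the larger part for 51.3% of them. Among the pathway genes that part was highest for Acadm (97.7%), Acot2 (97.1%), Ppara (97.0%), Ucp3 (96.8%) and Mlycd (95.4%), and lowest for Hadh (5.19%), Echs1 (7.09%), Acacb (7.16%) and Rxra (8.05%). Replicate numbers have 2 degrees of freedom and plasmids 1, so these parts describe the libraries and have no test. The summed TPM of the 33 genes was 3494 to 5121 TPM in LrpprcWT and 2945 to 4357 TPM in LrpprcP27A, with means of 4275 ± 815.6 and 3700.4 ± 711.2 TPM (SD, n = 3 each), and the groups overlapped. Fabp3 alone made up 15.8% to 30.4% of that sum.

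**Figure D4:**
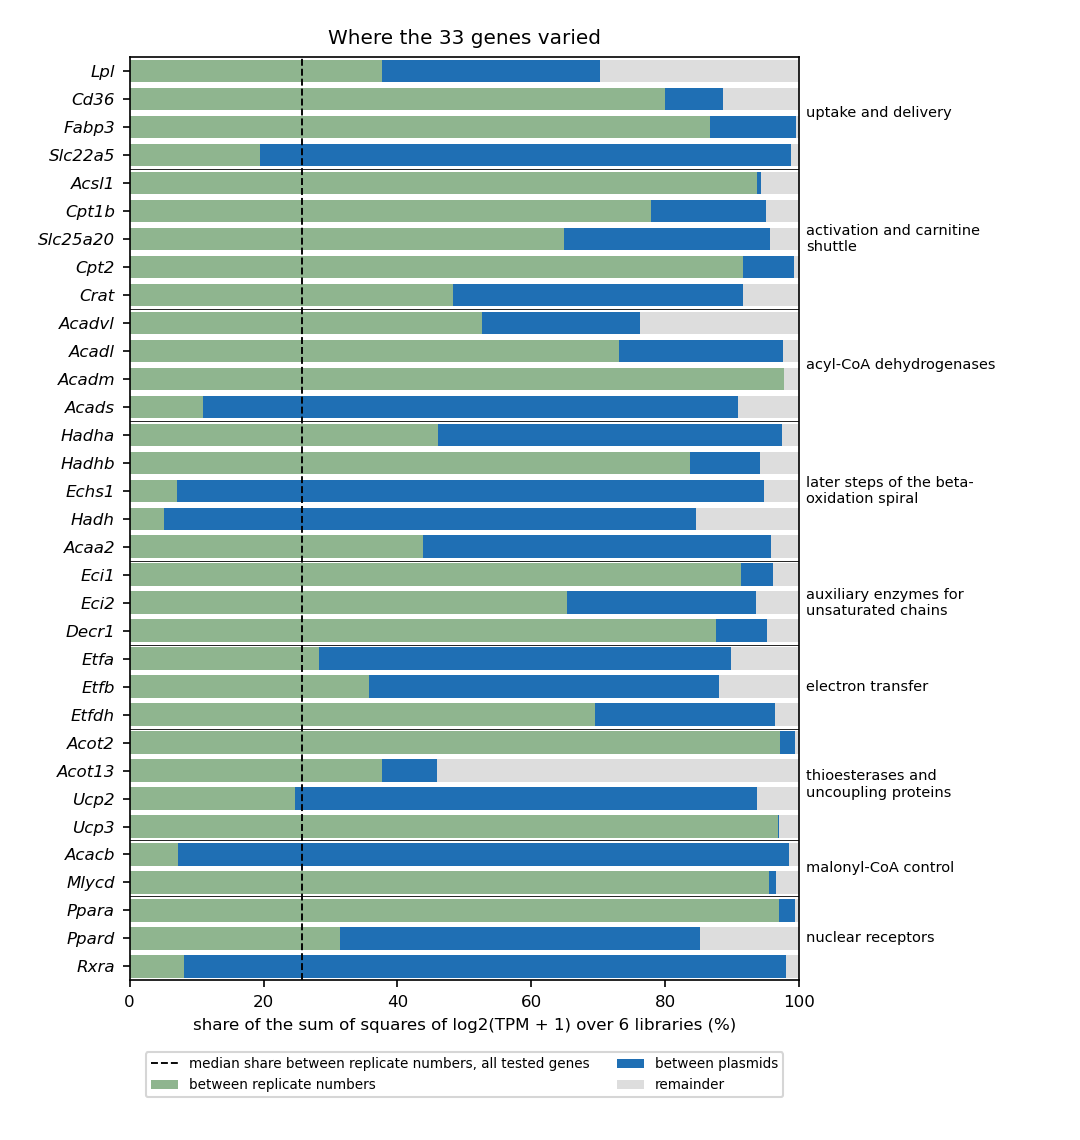
Share of the sum of squares of log2(TPM + 1) over 6 libraries (horizontal axis, %) that lay between replicate numbers, between plasmids and in the remainder, for each of the 33 genes by role; the dashed line is the median share between replicate numbers over all tested genes (25.7%). On the deposited scale, Acacb, Rxra, Hadh and Echs1 are mostly plasmid, while Acadm, Acot2, Ucp3, Mlycd and Ppara are almost wholly mouse. The split was not made with median-of-ratios scaling, where Hadh and Echs1 stood at -0.01 and 0.15 and Acadm and Mlycd at 0.36 and 0.31.

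Other lipid genes, a list of 85 with 78 tested, were set beside the pathway. On the deposited scale 10 were called lower (12.8%) and 2 higher (2.56%), where 23.3% and 1.34% of all tested genes were, with a median log2 fold change of -0.20. With the block the counts were 28 and 6 (35.9% and 7.69%), where 48.4% and 2.69% of all tested genes were called. With median-of-ratios scaling they were 1 and 5 (1.28% and 6.41%), where 6.03% and 5.25% of all were called. With both they were 10 and 16 (12.8% and 20.5%), where 15.8% and 13.4% of all were called. The rises called unpaired on the deposited scale were Vldlr, a lipoprotein receptor, and Prkab2, a regulatory subunit of the AMP-activated kinase that phosphorylates and restrains Acacb. With the block, Rxrg, Lpin1, Slc27a1 and Srebf1 were also called higher, and with median-of-ratios scaling Lpin1, Ehhadh and Abhd5 were. Srebf1 stood at 0.60 (limma adjusted p = 0.0564, and 0.0008 with the block) and at 0.95 with median-of-ratios scaling (adjusted p = 0.0549). Vldlr was 56.6, 48.8 and 39.2 TPM in LrpprcWT and 64.0, 86.6 and 84.4 TPM in LrpprcP27A (0.69 ± 0.17, adjusted p = 0.0267, and 1.06 with median-of-ratios scaling, adjusted p = 0.0319). Prkab2 was 103.8, 126.8 and 93.7 TPM against 135.4, 172.8 and 175.9 TPM (0.58 ± 0.15, adjusted p = 0.0308, and 0.95 with median-of-ratios scaling, adjusted p = 0.0400). For both genes every LrpprcP27A value was above every LrpprcWT value. The other subunits of that kinase on the list, named after their values were seen, were not called higher on either scale. The catalytic subunit Prkaa1 was called lower (-0.60 ± 0.16, adjusted p = 0.0308), which was -0.27 and not called with median-of-ratios scaling (adjusted p = 0.0910). The catalytic subunit Prkaa2 stood at 0.10 (adjusted p = 0.613) and at 0.47 after that scaling (adjusted p = 0.0707), and the regulatory subunits Prkag1 and Prkag3 at -0.30 and -0.34, called lower with the block (adjusted p = 0.0485 and 0.0238) but at 0.06 and 0.03 with median-of-ratios scaling. Among the genes called lower unpaired on the deposited scale, the largest falls were in Fabp5, a fatty acid-binding protein of epidermis and macrophages (-1.25 ± 0.29, adjusted p = 0.0256), the peroxisomal reductase Decr2 (-0.80 ± 0.16, adjusted p = 0.0195), the thioesterase Acot9 (-0.70), the monoglyceride lipase Mgll (-0.70) and the acyl-CoA synthetase Acsl6 (-0.68). With median-of-ratios scaling these stood at -0.93, -0.52, -0.34, -0.33 and -0.34, and Decr2 was called unpaired (adjusted p = 0.0360) and all 5 were called with the block (adjusted p = 0.0119 to 0.0366). The 12 other mitochondrial oxidation enzymes resembled the pathway, with a median of -0.14 and all 12 above the median gene. With the block and median-of-ratios scaling 3 of them were called higher (Acad11, Echdc2 and Acat1), where 13.4% of all tested genes were.

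Of genes known to answer to fasting and PPARs, Pdk4, Angptl4, Cpt1a and Acot1 were named whatever they did. Of 12 tested PPAR targets and coregulators on the wider list, 0 were called unpaired on the deposited scale. Of all tested genes, 23.3% and 1.34% were called lower and higher there. With the block 5 were lower and 2 higher, where 48.4% and 2.69% of all were. With median-of-ratios scaling 0 were lower and 1 higher, where 6.03% and 5.25% of all were. Pdk4, the kinase that shuts pyruvate out of oxidation, was 223.1, 426.3 and 714.2 TPM in LrpprcWT and 119.9, 452.4 and 851.3 TPM in LrpprcP27A. It was ordered by mouse in both groups, with 92.3% of its sum of squares between replicate numbers, and its log2 fold change was -0.18 ± 0.66 and turned to 0.19 with median-of-ratios scaling (adjusted p = 0.825 and 0.878). Angptl4, an inhibitor of Lpl, was 1.76, 3.95 and 6.44 TPM against 0.865, 1.86 and 2.47 TPM, lower in all 3 pairs (-0.82 ± 0.36, adjusted p = 0.103, and 0.0002 with the block). Cpt1a, the liver form of the entry enzyme, was 5.06, 3.30 and 6.97 TPM against 2.35, 2.24 and 3.73 TPM (-0.67 ± 0.24, adjusted p = 0.0684, and 0.0008 with the block). With median-of-ratios scaling Angptl4 stood at -0.56 (limma adjusted p = 0.324, and 0.0188 with the block) and Cpt1a at -0.37 (0.219, and 0.0268 with the block). Acot1 was 0.205, 0.190 and 0.445 TPM against 0.0384, 0.0520 and 0.169 TPM and was below the level for testing.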

How the data were processed

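Libraries were made from total RNA with a TruSeq RNA kit, which does not mark strand, and the authors trimmed the reads, aligned them to GRCm39 (mm39 in the submitters' processing notes) in CLC Genomics Workbench, and deposited 1 table of TPM for 41709 genes in 6 libraries. TPM keeps no read number, so depth and counting error are unknown.

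Log2(TPM + 1) of the 11611 genes with a mean of at least 1 TPM was compared with limma 3.58.1 in R 4.3.3 (empirical Bayes with trend), and p-values were adjusted over all tested genes by the Benjamini-Hochberg method. A fold change on this scale understates that of low genes. The main comparison was unpaired. The muscles are contralateral pairs, and over genes, the departure of a library from its group's mean correlated with that of the same-numbered library by 0.363, 0.528 and 0.356, so the replicate number was also fitted as a block. Other settings were a pseudocount of 0.1, no filter, a mean of at least 5 TPM, median-of-ratios, quantile and nuclear-only scaling (without mitochondrial genes and Rn18s-rs5), no trend, a Kruskal-Wallis test, and each library left out in turn. The fit was tested on simulated data.

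The pathway genes, the other lipid genes and the marker lists were chosen with earlier results of these data known. All 33 genes are named. Values per library were due for genes with an adjusted p under 0.05 unpaired on the deposited or median-of-ratios scale, and for the most abundant gene of each role, and further genes were given so after their values were seen. Of the other lipid genes, up to 5 rises and 5 falls past the threshold were named, with Pdk4, Angptl4, Cpt1a and Acot1. Further genes of that list were named after their values were seen. Positions and sequences were read from the GRCm39 genome and its GENCODE annotation with pysam 0.24.0. Of the 33 genes, 8 share windows of 100 bases with transcripts of other genes, which the counting could have divided: Cpt1b (86.2%, with Gm44502), Etfb (65.2%), Hadhb (53.2%), Fabp3 (21.7%), Acot2 (15.6%), Slc22a5 (13.2%), Eci2 (1.84%) and Lpl (1.57%). Those sharing most with Cpt1b, Etfb, Acot2, Slc22a5 and Eci2 stood at 1.33 TPM or less in every library, and those of Hadhb, Fabp3 and Lpl were not analysed here.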

Additional observations from a re-analysis of the deposited data

How the results depend on the processing

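On the deposited scale 30 of the 33 genes were below 0, and 26 of these stood above 0 with median-of-ratios scaling, with or without the replicate block. Those values were 0.092 for Lpl, 0.25 for Cd36, 0.068 for Slc22a5, 0.34 for Acsl1, 0.28 for Cpt1b, 0.14 for Slc25a20, 0.25 for Cpt2, 0.25 for Acadvl, 0.15 for Acadl, 0.36 for Acadm, 0.058 for Acads, 0.066 for Hadha, 0.26 for Hadhb, 0.15 for Echs1, 0.30 for Eci1, 0.14 for Eci2, 0.24 for Decr1, 0.099 for Etfa, 0.11 for Etfb, 0.26 for Etfdh, 0.18 for Acot2, 0.33 for Acot13, 0.30 for Ucp3, 0.31 for Mlycd, 0.19 for Ppara and 0.041 for Ppard. Quantile normalization turned 20 genes, to 0.13 for Cd36, 0.13 for Slc22a5, 0.22 for Acsl1, 0.14 for Cpt1b, 0.090 for Slc25a20, 0.13 for Cpt2, 0.092 for Acadvl, 0.25 for Acadm, 0.15 for Hadhb, 0.12 for Echs1, 0.21 for Eci1, 0.098 for Eci2, 0.12 for Decr1, 0.18 for Etfdh, 0.20 for Acot2, 0.19 for Acot13, 0.19 for Ucp3, 0.21 for Mlycd, 0.28 for Ppara and 0.065 for Ppard. Rescaling without mitochondrial genes and 18S turned 15, to 0.065 for Cd36, 0.16 for Acsl1, 0.097 for Cpt1b, 0.067 for Cpt2, 0.060 for Acadvl, 0.18 for Acadm, 0.071 for Hadhb, 0.12 for Eci1, 0.061 for Decr1, 0.074 for Etfdh, 0.0095 for Acot2, 0.14 for Acot13, 0.12 for Ucp3, 0.13 for Mlycd and 0.039 for Ppara. These scalings shift all genes by construction: their median was -0.32 as deposited, -0.0047 with median-of-ratios scaling, 0.04 with quantile normalization and -0.18 after rescaling, and 88.0%, 50.8%, 44.6% and 72.7% of genes were below 0.

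The median log2 fold change of the pathway, -0.13, became 0.19 with median-of-ratios scaling (also with the block), 0.13 with quantile normalization and 0.039 after rescaling. Acacb and Rxra were higher and past the threshold under all of these scalings, with and without the block where it was fitted.

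Counts of pathway genes called lower and higher, 2 and 2, were 0 and 3 with median-of-ratios scaling, 0 and 2 after rescaling and with quantile normalization, 6 and 2 with the replicate block, 1 and 10 with the block and median-of-ratios scaling, 1 and 1 without trend, 0 and 0 without filter, where many genes near 0 enter the adjustment, and 0 and 0 by the Kruskal-Wallis test, whose smallest adjusted p here is 0.0969 (8 lower and 2 higher at its unadjusted p under 0.05). At an unadjusted p under 0.05, limma had 1, 2, 1 and 7 pathway genes lower and 5, 3, 4 and 2 higher with median-of-ratios scaling, rescaling, quantile normalization and no filter. A pseudocount of 0.1 and a minimum of 5 TPM left 2 and 2. Other lipid genes, 10 and 2, were 1 and 5 with median-of-ratios scaling, 1 and 2 after rescaling, 0 and 4 with quantile normalization, 28 and 6 with the block, 10 and 16 with the block and median-of-ratios scaling, and 0 and 0 without filter and by the Kruskal-Wallis test. All tested genes, 2705 and 156, were 700 and 610 with median-of-ratios scaling, 658 and 218 after rescaling, 518 and 493 with quantile normalization, 5619 and 312 with the block, 1839 and 1561 with the block and median-of-ratios scaling, 1560 and 116 at a minimum of 5 TPM, 42 and 9 without filter, and 0 and 0 by the Kruskal-Wallis test.

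Leaving out each library in turn gave 0 to 7 pathway genes lower and 0 to 2 higher, 0 to 25 and 0 to 5 other lipid genes, and 15 to 6913 and 3 to 304 of all genes. The highest pathway count, 7 lower and 2 higher, came without LrpprcWT replicate 2, and both counts were 0 without LrpprcWT replicate 1 or 3 and without LrpprcP27A replicate 2 or 3, where 3 to 5 were lower and 1 or 2 higher at an unadjusted p under 0.05. All genes were not counted at that unadjusted threshold in limma. The pathway median ranged from -0.28 without LrpprcP27A replicate 3 to -0.056 without LrpprcWT replicate 3. Signs turned for some genes, and the ranges were -0.28 to 0.024 for Cd36, -0.16 to 0.11 for Acsl1, -0.25 to 0.035 for Cpt2, -0.12 to 0.11 for Acadm, -0.21 to 0.0080 for Hadhb, -0.17 to 0.043 for Eci1, -0.24 to 0.055 for Decr1, -0.50 to 0.18 for Acot2, -0.097 to 0.013 for Acot13, -0.64 to 0.38 for Ucp3, -0.20 to 0.13 for Mlycd and -0.39 to 0.11 for Ppara. The cause was not tested. With 2 libraries left in a group, limma assumes that these vary like the other group. TPM sets no read depth, so how much of the spread of low genes such as Ppara, Ucp2 and Slc22a5 is counting error could not be judged.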

Other observations

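Some ratios within a library, where scaling does not enter, were looked at after the values were seen and have no test. The ratio of Acacb to Acaca, the carboxylase of the cytosol that serves fatty acid synthesis, was 13.96, 21.3 and 18.6 in LrpprcWT replicates 1, 2 and 3 and 22.4, 32.8 and 33.1 in LrpprcP27A, so the carboxylase of the outer mitochondrial membrane was the larger part in every library and the groups did not overlap. The ratio of Ucp2 to Ucp3 was 0.112, 0.107 and 0.0825 in LrpprcWT and 0.0905, 0.0492 and 0.0259 in LrpprcP27A, and the groups overlapped. Per pair of libraries, the median log2 difference of the 33 genes was -0.25, -0.11 and -0.16 in replicates 1, 2 and 3 on the deposited scale.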
